A study of Mus musculus with 12 samples.

Results

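Nnt and 7 other genes of the mitochondrial NADPH, thioredoxin and glutathione systems (Txn2, Txnrd2, Prdx3, Gsr, Sod2, Idh2 and Gpx1) were followed in mouse embryonic stem cells of 4 genotypes. The genes were taken by name and make up 8 of the 43346 gene IDs in the deposited table. All 8 were among the 17148 genes with enough reads to be tested.

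The study measured RNA in 12 libraries, 3 from each of 4 stem cell genotypes. The B6 group carried the C57BL/6J genome and the D2 group the DBA/2J genome. The B6-13D2 group (B6.D2-(rs30079041-rs51756099)/Bakr, called QJ in the labels) carried a chromosome 13 segment of D2 origin on the B6 background. The D2-13B6 group (D2.B6-(rs29224292-rs13469455)/Bakr, called XE) carried the reverse, a B6 segment on the D2 background, and its segment ends at another marker in the series text. No group was treated, and all were grown with serum, LIF and the inhibitors PD0325901 and CHIR99021. Each strain stood for a single cell line in the protocol, grown as 3 separate cultures, while the titles call the libraries technical replicates, so p-values measured the spread between cultures and not between lines. The labels give B6 replicate 3 another line than B6 replicates 1 and 2. The D2 titles name the same line for all 3 libraries, but the cell line label of these libraries names a different one. Library totals ran from 22184196 to 36411799 expected counts, the number of reads the authors' counting assigned to each gene, whole or divided. The 8 genes had whole counts in all 12 libraries.

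The stem cell label was checked against 8 defining genes (Pou5f1, Nanog, Sox2, Zfp42, Esrrb, Klf4, Tfcp2l1 and Dppa5a), and all 8 were detected. Levels are given in CPM, a gene's count relative to the scaled total of its library. The 8 stem cell genes summed to 4645 to 4964 CPM in B6 and to 3201 to 3286 CPM in D2, with 5382 to 5637 CPM for B6-13D2 and 3900 to 3948 CPM for D2-13B6. Fibroblast genes were also abundant, although the labels name no feeder cells. The 7 listed (Col1a1, Col1a2, Col3a1, Thy1, Dcn, Lum and Postn), all tested, summed to 9351 to 10157 CPM in B6 and to 14127 to 16909 CPM in D2, with 3083 to 3170 CPM for B6-13D2 and 7706 to 8030 CPM for D2-13B6. The trophoblast list (Cdx2, Elf5, Eomes and Tfap2c), of which Elf5 was too low to be tested, summed to 50.03 to 58.4 CPM in B6 and to 40.0 to 41.3 CPM in D2, with 80.2 to 83.0 CPM for B6-13D2 and 20.2 to 21.4 CPM for D2-13B6. Tfap2c made up most of that sum. The list of primed or differentiating cells (Fgf5, T, Otx2 and Pax6) summed to 4.46 to 8.01 CPM over all libraries. The primitive endoderm list (Gata4, Gata6, Sox17, Pdgfra, Dab2 and Sparc) summed to 912 to 2303 CPM, nearly all of it Sparc, which fibroblasts also express. In such bulk samples, fewer cells of a type and less RNA per cell cannot be told apart.

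Nicotinamide nucleotide transhydrogenase, the product of Nnt, sits in the inner mitochondrial membrane and uses the proton gradient to make NADPH. Glutathione reductase and mitochondrial thioredoxin reductase spend that NADPH to keep glutathione and thioredoxin reduced, and peroxidases use both to remove the hydrogen peroxide that superoxide dismutase forms. The C57BL/6J strain is known for a deletion of coding exons of Nnt, which DBA/2J does not share, so a B6 and D2 comparison is also a comparison of a deleted and an intact gene. The question asked of Nnt was whether its RNA level followed the background genome or the chromosome 13 segment.

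Nnt (ENSMUSG00000025453) lies on the minus strand of chromosome 13, at chr13:119335448-119408997 in build mm10, near the distal end. The reference genome is that of C57BL/6J, so the annotated gene is the deleted form. Its longest coding transcript, Nnt-202, has 17 exons and 2505 coding bases, or 835 codons before the stop. The annotation holds another protein-coding entry named Nnt on the same strand, which shares 3339 exonic bases with this gene. That entry is not among the deposited gene IDs, and its part in the counting was not tested. The exons that the authors' D2 transcripts held, and the positions of the segment's end markers, are not given in the sources used here, so whether Nnt lies inside the segment is not stated either. Reads from exons that the deletion removes may therefore not have been counted, which would make the level of an intact gene too low, and their part in the Nnt values below was not tested. The other genes lie on other chromosomes: Txn2 on 15, Txnrd2 on 16, Prdx3 on 19, Gsr on 8, Sod2 on 17, Idh2 on 7 and Gpx1 on 9.

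Upstream sequences (RefSeq, GRCm38.p6) are shown for a gene whose level followed the background, Sod2, and for a gene that passed no test, Prdx3, since both carry the same short element. The stretches hold no annotated exon and lie at chr17:13007589-13007816 on the plus strand for Sod2 and at chr19:60874557-60874788 on the minus strand for Prdx3. That of Sod2 ends just before the first exon of Sod2-201, its longest coding transcript, and lies in an intron of another transcript that starts further upstream. Capitals mark GC boxes, the letters GGGCGG or their reverse complement.
Sod2: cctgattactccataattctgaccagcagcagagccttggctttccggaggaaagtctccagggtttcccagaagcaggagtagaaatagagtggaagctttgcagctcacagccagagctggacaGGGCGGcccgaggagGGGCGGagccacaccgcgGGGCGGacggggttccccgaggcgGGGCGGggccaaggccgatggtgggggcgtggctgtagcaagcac
Prdx3: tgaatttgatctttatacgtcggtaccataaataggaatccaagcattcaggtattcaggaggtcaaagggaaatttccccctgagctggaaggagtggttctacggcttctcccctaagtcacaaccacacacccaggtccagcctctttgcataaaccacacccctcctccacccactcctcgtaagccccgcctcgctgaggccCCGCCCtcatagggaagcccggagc
The Sod2 stretch holds 4 GC boxes and the Prdx3 stretch 1. Over windows of 300 bases from 250 before to 50 after each start site, a GC box was found in all 6 of the 8 genes that had an entry (Txn2, Txnrd2, Prdx3, Sod2, Idh2 and Gpx1) and in 35.7% of all 32851 promoters. In the wider list of redox genes described below, 40 had an entry, and 32 of them had a GC box. The core letters of the antioxidant response element, TGACNNNGC on either strand, were in none of the 6 windows and in 12.4% of all promoters. They were in 12 of the 40 genes of the wider list. These matches describe the letters alone.

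The 8 genes differed widely in level. Levels were divided by the merged length of all annotated exons of a gene. The mean over the 12 libraries was then 277 CPM per kilobase for Gpx1, 68.0 for Idh2, 62.9 for Gsr, 47.1 for Prdx3, 15.6 for Sod2, 5.00 for Nnt and 1.22 for Txnrd2, with Txn2 between Prdx3 and Sod2. Gpx1 stood at the 99.1st percentile of the genes tested and Txnrd2 at the 33.0th. Nnt, at the 57.0th percentile, was a gene of middling level by this measure, counted with 549 to 1543 reads per library. Its merged exons have 7.037 kb and its transcript Nnt-202 has 3464 exonic bases, so these levels depend on the length chosen.

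Nnt was about 2-fold lower in cells with a D2 background, whichever segment they carried, and slightly higher with the D2 segment on either background. Its level was 44.7, 44.3 and 43.3 CPM in the 3 B6 libraries and 22.9, 24.7 and 26.0 CPM in the D2 libraries. It was 53.4, 47.9 and 50.5 CPM in B6-13D2 and 21.6, 21.6 and 21.3 CPM in D2-13B6. The order was therefore B6-13D2, B6, D2 and D2-13B6, and no group overlapped its neighbour in that order. The higher levels were in the groups with the background of C57BL/6J, the strain known for the deletion, and which allele of Nnt the congenic lines carry is not given in the sources used here.

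With the B6 segment shared, Nnt was 2.05-fold lower in D2-13B6 than in B6 (log2 change -1.04 ± 0.053 SE, adjusted p = 2.16e-11, edgeR's quasi-likelihood test with Benjamini-Hochberg adjustment over all genes tested). With the D2 segment shared, it was 2.06-fold higher in B6-13D2 than in D2 (log2 change 1.05 ± 0.053 SE, adjusted p = 3.17e-12 by edgeR). Both comparisons hold the segment and change the background, as far as the segments of the 2 congenic strains match. The differences between lines that share a background were smaller: B6-13D2 exceeded B6 by a log2 change of 0.20 ± 0.050 (SE, adjusted p = 0.00238 by edgeR), and D2-13B6 was below D2 by a log2 change of -0.19 ± 0.056 (SE, adjusted p = 0.0076 by edgeR). In fold terms B6-13D2 was 1.15-fold above B6, and D2-13B6 was 1.14-fold below D2.

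The parental difference, D2 against B6, was a log2 change of -0.85 ± 0.054 (SE, adjusted p = 4.23e-10 by edgeR), smaller than either background effect, with the D2 segment on the higher side and the D2 background on the lower. The comparison of the congenic lines set them together, and B6-13D2 was 2.35-fold above D2-13B6 (log2 change 1.23 ± 0.052 SE, adjusted p = 5.21e-13 by edgeR). The effect of the segment on one background minus that on the other was 0.01 on the log2 scale (SE 0.075, edgeR adjusted p = 0.927), with an interval of about 95% from -0.14 to 0.16. An effect of background and an effect of segment that add on the log scale thus described the 4 means of Nnt within this error. Without B6 replicate 3, from another line, the parental difference was -0.86 and the segment effect on the B6 background 0.19.

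The fibroblast sum, most of it Col1a1, had neither the order of groups of Nnt nor its reverse. D2-13B6 had a lower fibroblast sum than B6 (7706 to 8030 against 9351 to 10157 CPM) and also the lower Nnt, while D2 had the highest fibroblast sum and more Nnt than D2-13B6. B6-13D2 had the lowest fibroblast sum and the highest Nnt. Not all fibroblast genes went with the sum. Col3a1, Dcn, Lum and Postn were higher in D2-13B6 than in B6, whereas Col1a1, Col1a2 and Thy1 were lower. The order of groups in Dcn was the reverse of that in Nnt, from 2.94 CPM in D2-13B6 to 0.640 CPM in B6-13D2. The stem cell sum did split by background as Nnt did, with 4645 to 5637 CPM in the 6 libraries of B6 background and 3201 to 3948 CPM in the 6 of D2 background. However, D2-13B6 was above D2 in that sum and below it in Nnt. Nanog and Zfp42 alone did not split by background. Zfp42 was at 75.5 CPM in D2-13B6 and 67.5 CPM in B6, and Nanog overlapped between these groups. The trophoblast sum, far lower than both, had the order of groups of Nnt, from 80.2 to 83.0 CPM in B6-13D2 down to 20.2 to 21.4 CPM in D2-13B6. Tfap2c and Eomes had that order too. Cdx2 had the reverse, with 4.49 CPM in D2-13B6, 3.55 in D2, 1.22 in B6 and 0.898 in B6-13D2. The part of these markers in the Nnt difference was not tested.

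**Figure D1:**
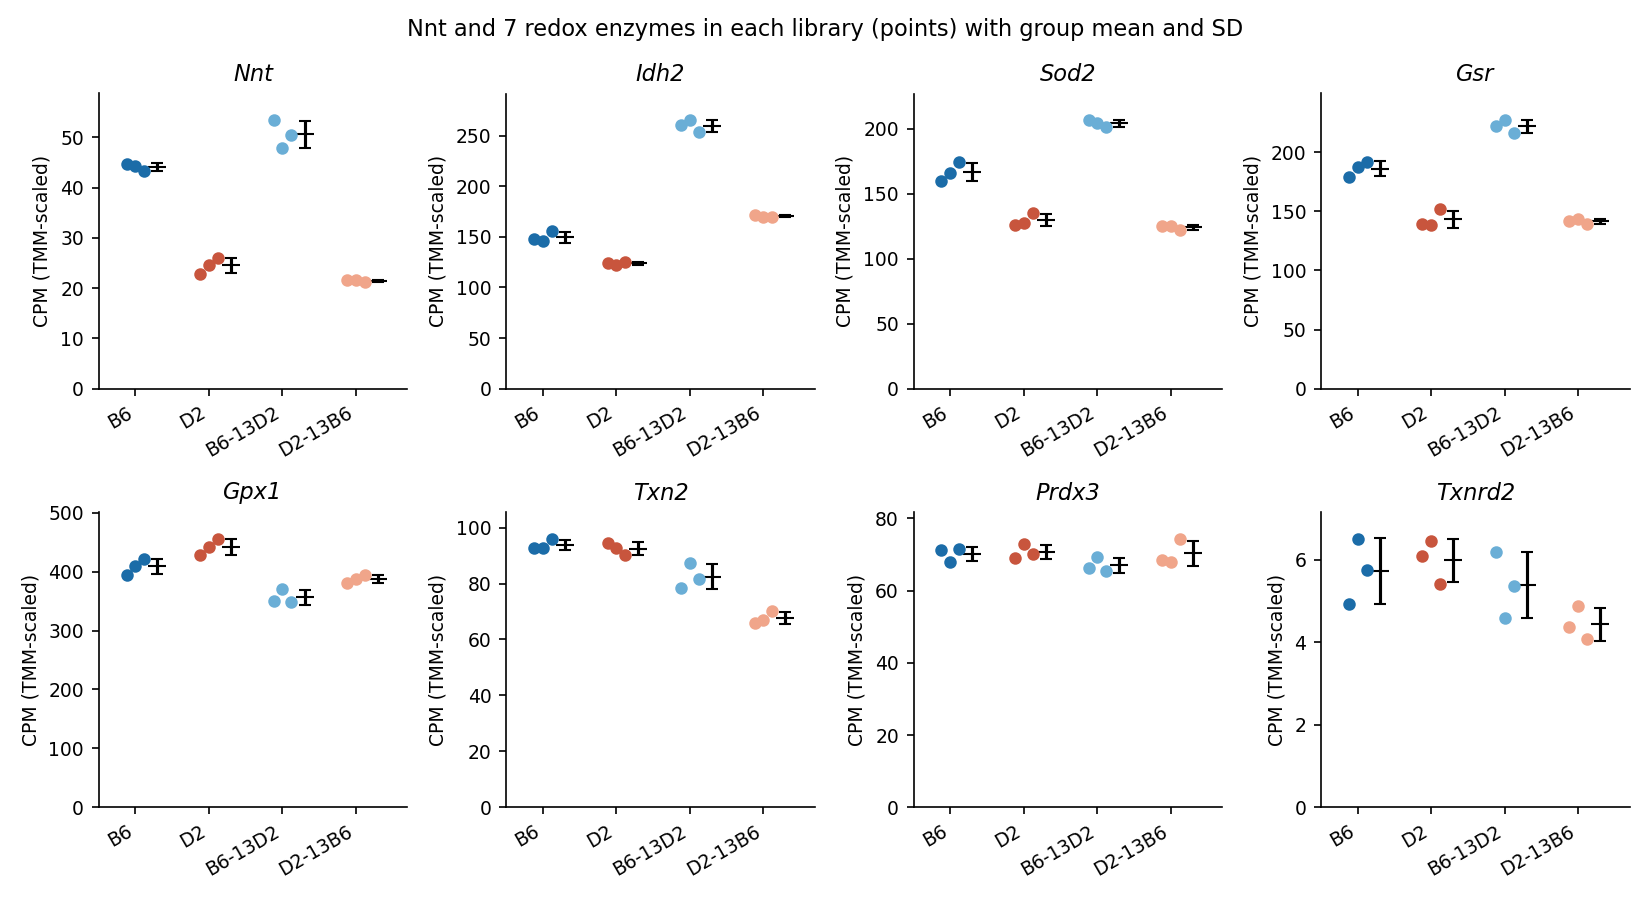
Level of each of the 8 genes, in CPM of the scaled library on a linear axis from 0, in the 3 libraries of each genotype (points), with the group mean and SD beside them (black). Nnt sits between 43.3 and 53.4 CPM in the 6 libraries with a B6 background and between 21.3 and 26.0 CPM in the 6 with a D2 background.

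Sod2 and Gsr also followed the background, with a smaller step than Nnt. Sod2 encodes the manganese superoxide dismutase of the matrix, which turns superoxide into hydrogen peroxide. Its level was 160, 166 and 174 CPM in B6 and 126, 128 and 135 CPM in D2, with 207, 204 and 202 CPM for the B6-13D2 and 126, 126 and 122 CPM for the D2-13B6 libraries. Every library with a B6 background was above every library with a D2 background. Sod2 was lower in D2-13B6 than in B6 (log2 change -0.42 ± 0.038 SE, adjusted p = 3.24e-08 by edgeR) and higher in B6-13D2 than in D2 (0.66 ± 0.038 SE, adjusted p = 2.15e-11 by edgeR). It was higher with the D2 segment on the B6 background (0.29 ± 0.037 SE, adjusted p = 2.55e-06 by edgeR), and on the D2 background the exchange of the segment gave a log2 fold change of -0.06 (edgeR adjusted p = 0.195), with an interval of about 95% from -0.13 to 0.02.

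Gsr encodes glutathione reductase, which spends NADPH to renew glutathione in the cytosol and in mitochondria. Its level was 179, 187 and 192 CPM in B6 and 140, 138 and 152 CPM in D2, with 222, 227 and 216 CPM for the B6-13D2 and 142, 144 and 140 CPM for the D2-13B6 libraries. D2 and D2-13B6 overlapped and both lay below B6 and B6-13D2. The background effect was a log2 change of -0.39 for D2-13B6 against B6 (± 0.040 SE, adjusted p = 1.55e-07 by edgeR) and of 0.63 for B6-13D2 against D2 (SE 0.040, edgeR adjusted p = 7.90e-11). As for Sod2, Gsr was higher with the D2 segment on the B6 background (0.25 ± 0.040 SE, adjusted p = 2.66e-05 by edgeR), while on the D2 background the value was -0.01 (edgeR adjusted p = 0.793).

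The stem cell sum, from 4645 to 5637 CPM with a B6 background and from 3201 to 3948 CPM with a D2 background, separated the same libraries as Sod2 and Gsr did. Nanog and Zfp42, of that list, did not separate them. The trophoblast sum also did, from 50.03 to 83.0 CPM with a B6 background and from 20.2 to 41.3 CPM with a D2 background, and its order of groups was that of the Sod2 and Gsr means. Cdx2, of the same list, had the reverse order of groups. The part of these markers in the background effects was not tested.

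Thus 3 of the 8 genes, Nnt, Sod2 and Gsr, were lower on the D2 background in both comparisons, a pattern met by 17.7% of all genes tested. At least 2-fold lower in both was Nnt alone among the 8, against 2.91% of all genes, but D2-13B6 against B6 fell short of 2-fold on the log2 scale with DESeq2 (-0.98), with RLE scaling (-0.98) and with the compared libraries only (-0.97). Nnt was also the single gene of the 8 that moved with the segment in the same direction on both backgrounds, which held for 7.33% of all genes. Sod2 joined it when genes averaging under 1 CPM were removed (-0.10 in D2-13B6 relative to D2, edgeR adjusted p = 0.022). Of all genes, 4.56% moved in a constant direction with background and with segment.

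Idh2 did not follow the background alone or the segment alone. It encodes the mitochondrial isocitrate dehydrogenase that, like Nnt, makes NADPH in the matrix. Its level was 148, 145 and 156 CPM in B6 and 124, 122 and 125 CPM in D2, with 260, 265 and 254 CPM for the B6-13D2 and 171, 170 and 170 CPM for the D2-13B6 libraries. No groups overlapped, and both congenic groups were above both parental groups. Idh2 was 1.73-fold higher in B6-13D2 than in B6 (log2 change 0.79 ± 0.034 SE, adjusted p = 9.47e-13 by edgeR) and 1.38-fold higher in D2-13B6 than in D2 (0.46 ± 0.034 SE, adjusted p = 2.51e-09 by edgeR). The D2 line had less than B6 (-0.27 ± 0.035 SE, adjusted p = 2.31e-06 by edgeR), and B6-13D2 had 2.10-fold the level of D2. The D2 segment was thus on the higher side on the B6 background and on the lower side on the D2 background.

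Gpx1 and Txn2 were lower in both congenic groups than in their background strains. Gpx1 encodes a glutathione peroxidase of the cytosol and mitochondria. It was at 395, 410 and 421 CPM in B6 and 429, 442 and 456 CPM in D2, with 349, 371 and 349 CPM for the B6-13D2 and 381, 387 and 394 CPM for the D2-13B6 libraries. The groups stood in the order D2, B6, D2-13B6 and B6-13D2 without overlap, but the steps were small. Gpx1 fell by 0.20 on the log2 scale in B6-13D2 against B6 (SE 0.036, edgeR adjusted p = 1.55e-04) and by 0.19 in D2-13B6 against D2 (SE 0.036, edgeR adjusted p = 2.06e-04). The difference of D2-13B6 from B6 was a log2 fold change of -0.08 and did not pass (edgeR adjusted p = 0.0752), and that of D2 from B6 was 0.11 (edgeR adjusted p = 0.0124), a call that was lost without B6 replicate 1 (edgeR adjusted p = 0.0734).

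Txn2 encodes mitochondrial thioredoxin, the electron carrier between Txnrd2 and Prdx3. It was at 92.7, 92.6 and 96.0 CPM in B6 and at 94.6, 92.8 and 90.1 in D2, which overlapped. It was at 78.5, 87.4 and 81.6 CPM in B6-13D2 and at 66.1, 67.1 and 70.1 in D2-13B6, below every parental library. Against the background strain, Txn2 fell by 0.18 on the log2 scale in B6-13D2 (SE 0.042, edgeR adjusted p = 0.0011) and by 0.45 in D2-13B6 (SE 0.042, edgeR adjusted p = 5.14e-08). D2 against B6 gave a log2 fold change of -0.02 (edgeR adjusted p = 0.716), with an interval of about 95% from -0.10 to 0.06.

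Of the 8 genes, these 3 differed from the background strain in a shared direction in both congenic groups, Idh2 upward and Gpx1 and Txn2 downward, a pattern that 32.2% of all genes met. The order of the 4 groups in Idh2 was the reverse of that in the fibroblast sum, and the order in Gpx1 was the same as it. The part of the fibroblast signal in these differences was not tested. The column names of the congenic libraries carry a prefix that the parental ones lack, with no stated meaning, so anything it marks cannot be told apart from a difference between congenic and parental lines.

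**Figure D2:**
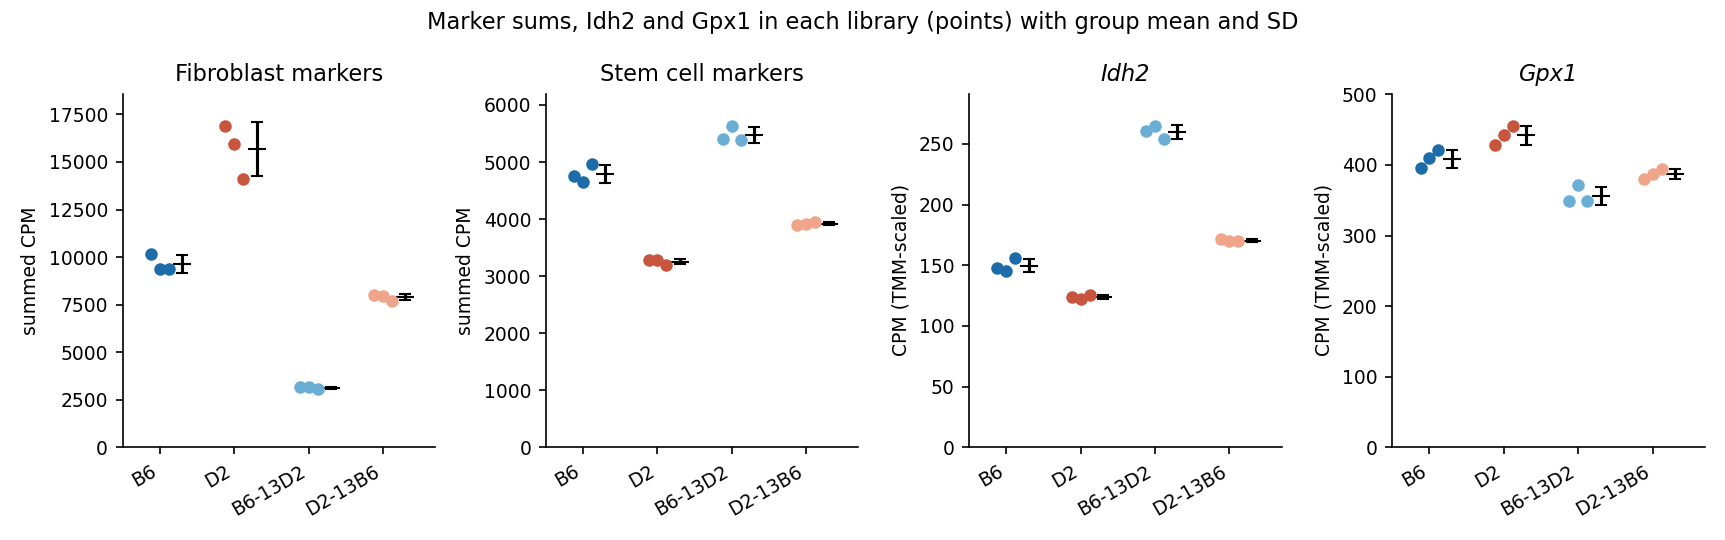
Summed CPM of the 7 fibroblast genes and of the 8 stem cell genes, and CPM of Idh2 and Gpx1, on linear axes from 0, in the 3 libraries of each group (points) with the group mean and SD (black). The fibroblast sum is highest in D2 and lowest in B6-13D2, Gpx1 has the same order of groups, and Idh2 the reverse order. Most of the sum is Col1a1, and Col3a1, Dcn, Lum and Postn (not shown singly) have D2-13B6 above B6.

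Of the remaining genes of the thioredoxin chain, Prdx3 passed no test and Txnrd2 was lower in D2-13B6 than in either parental group. Prdx3 encodes the peroxiredoxin of the matrix that removes hydrogen peroxide with electrons from Txn2. It was at 71.2, 67.8 and 71.4 CPM in B6 and 69.1, 72.8 and 70.2 CPM in D2, with 66.3, 69.3 and 65.3 CPM for the B6-13D2 and 68.6, 68.0 and 74.3 CPM for the D2-13B6 libraries. All groups overlapped, and none of the 7 tests passed. Its largest value was a log2 change of -0.08 for B6-13D2 against D2 (± 0.043 SE, adjusted p = 0.105 by edgeR), with an interval of about 95% from -0.16 to 0.01.

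Txnrd2 encodes the mitochondrial thioredoxin reductase, which passes electrons from NADPH to Txn2. With 112 to 232 reads per library it was at 4.92, 6.51 and 5.75 CPM in B6 and 6.08, 6.45 and 5.42 CPM in D2, with 6.20, 4.60 and 5.36 CPM for the B6-13D2 and 4.36, 4.87 and 4.08 CPM for the D2-13B6 libraries. D2-13B6 was below every B6 and D2 library and overlapped B6-13D2. It was lower than D2 by a log2 change of -0.44 ± 0.129 (SE, adjusted p = 0.00775 by edgeR), which held under every alternative run. The difference from B6, -0.36, passed (edgeR adjusted p = 0.0247) but was lost with DESeq2 (adjusted p = 0.0855). It was also lost without B6 replicate 2 or 3 or D2-13B6 replicate 1 or 3 (edgeR adjusted p from 0.0518 to 0.135).

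**Figure D3:**
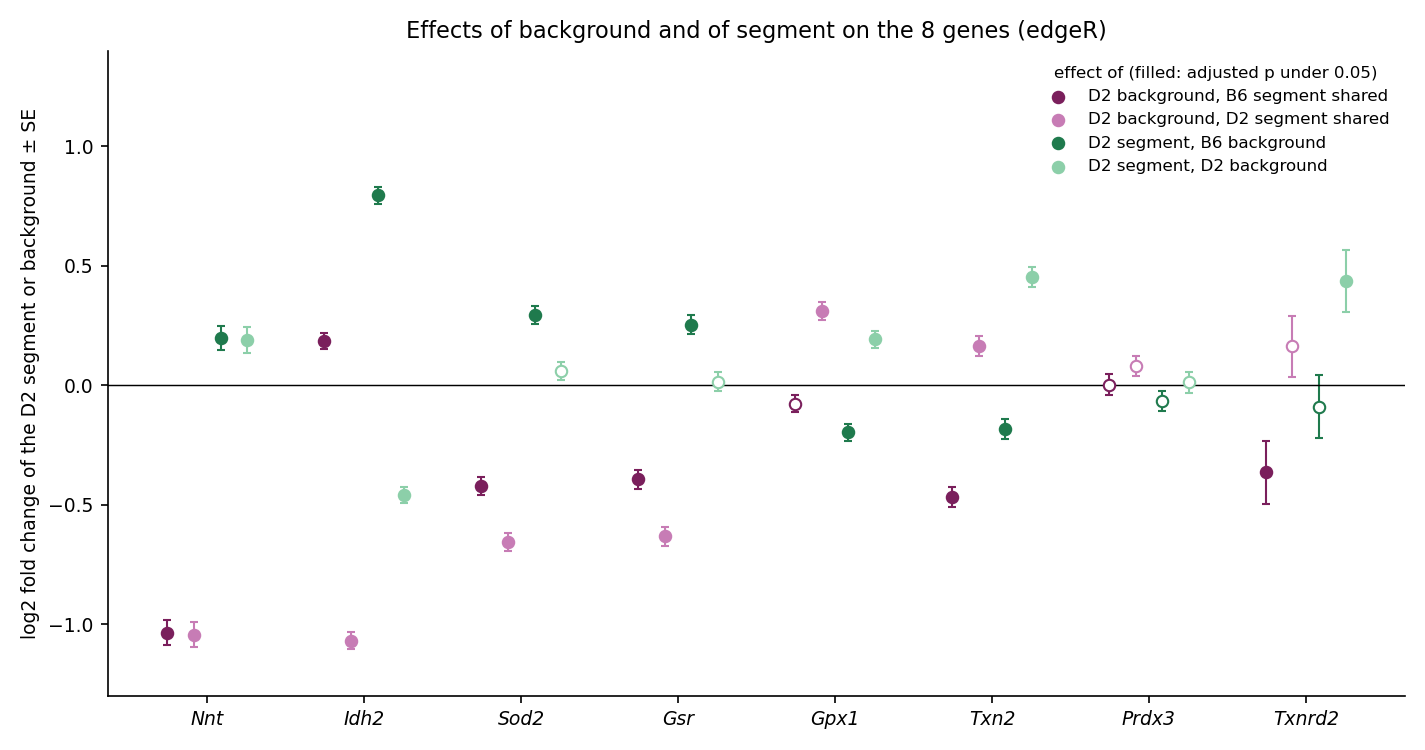
Log2 fold change with SE (edgeR) for the D2 background against the B6 background, with either segment shared, and for the D2 segment against the B6 segment, on either background, for each of the 8 genes; filled points passed an adjusted p of 0.05. Nnt has both background effects near -1 and both segment effects near 0.2, whereas in Idh2 the background effect changes sign with the segment and the segment effect with the background.

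Counted by comparison, the 8 genes were called at shares close to those of all genes tested. In D2 against B6, 5 of the 8 passed, 1 higher and 4 lower, where 60.0% of all genes did, 29.8% higher and 30.3% lower. In B6-13D2 against B6, 6 passed, 4 higher and 2 lower (58.3% of all genes, 25.4% higher and 32.9% lower), and in D2-13B6 against D2, 5 passed, 1 higher and 4 lower (57.3% of all, 27.6% and 29.7%). In the background comparisons, 6 passed in B6-13D2 against D2, 4 higher and 2 lower (74.6% of all, 36.7% and 38.0%), and 6 in D2-13B6 against B6, 1 higher and 5 lower (59.0%, 24.5% and 34.6%). Between the congenic lines, 6 passed, 5 of them higher and 1 lower in B6-13D2 (70.2%, 31.8% and 38.4%). The median log2 fold change of the 8 was -0.15 in D2 against B6 (0.01 over all genes), 0.07 for B6-13D2 over its background strain (-0.04) and -0.12 for D2-13B6 over its own (0.00). It was -0.38 in D2-13B6 against B6, against -0.06 over all genes, and 0.28 in B6-13D2 against D2, against 0.00 over all genes. In B6-13D2 against D2-13B6 it was 0.45, against -0.06 over all genes. Without B6 replicate 3, 5 genes rather than 6 passed in D2-13B6 against B6, and the other counts were the same.

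The effect of the segment differed between backgrounds for 6 of the 8 genes, 3 with a positive and 3 with a negative difference, where 64.5% of all genes passed that test, 31.1% positive and 33.4% negative. The difference, the segment effect on B6 minus that on D2, was 1.25 on the log2 scale for Idh2 (SE 0.048, edgeR adjusted p = 1.25e-13), while Nnt and Prdx3 did not pass. The same difference equals that between both congenic and both parental groups.

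Genes next to Nnt on chromosome 13 were compared with it. Of 25 other protein-coding genes within 1 Mb, 18 were tested, and 5 of them were lower on the D2 background in both comparisons (Fgf10, Paip1, 4833420G17Rik, 3110070M22Rik and Hmgcs1) while none was higher in both. Over all genes, 17.7% were lower in both. Hmgcs1, the cytosolic HMG-CoA synthase of sterol synthesis, was the single neighbour that was also higher with the D2 segment on both backgrounds, as Nnt was. It was at 230 ± 9.24 CPM in B6 and 127 ± 3.59 CPM in D2, with 295 ± 6.81 CPM for B6-13D2 and 113 ± 3.20 CPM for D2-13B6 (SD, n = 3), the same order of groups as Nnt.

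Paip1, a partner of the poly(A)-binding protein that lies 19.6 kb distal to Nnt, had the background step but not the segment step of Nnt. It was at 85.5 ± 2.45 CPM in B6 and 45.8 ± 0.434 CPM in D2, with 78.3 ± 2.96 CPM for B6-13D2 and 33.8 ± 0.385 CPM for D2-13B6 (SD, n = 3). It was lower in both congenic groups than in their background strains, by log2 fold changes of -0.13 and -0.44 (edgeR adjusted p = 0.00778 and 6.73e-08). Its effect of the segment differed between backgrounds by -0.56 (SE 0.056, edgeR adjusted p = 8.23e-08), whereas that of Nnt was 0.01. 4833420G17Rik, 53.8 kb distal to Nnt, had a log2 fold change of -1.07 for D2-13B6 relative to B6 and of 0.90 for B6-13D2 relative to D2. Neither congenic line passed against its background strain there, with -0.05 for B6-13D2 and -0.12 for D2-13B6. Over the 638 genes tested on chromosome 13, the median log2 fold change was -0.20 in D2-13B6 against B6 and -0.08 in B6-13D2 against D2, against -1.04 and 1.05 for Nnt.

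**Figure D4:**
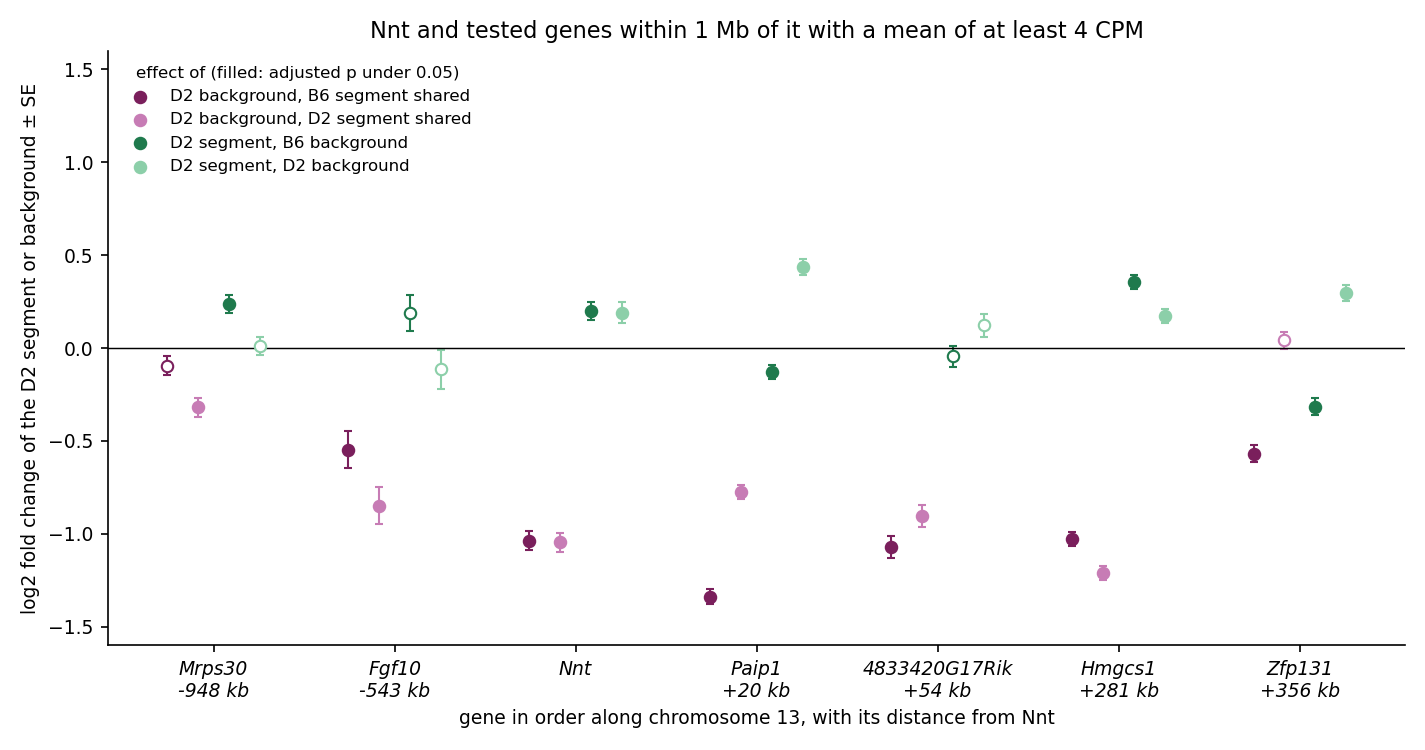
Log2 fold change with SE (edgeR) of background and segment for Nnt and for the 6 tested genes within 1 Mb that had a mean of at least 4 CPM, in their order along chromosome 13 with the distance from Nnt in kb; filled points passed an adjusted p of 0.05. Nnt, Fgf10, Paip1, 4833420G17Rik and Hmgcs1 have both background effects below 0 and filled, Mrps30 has both below 0 with 1 filled, and of the genes shown Nnt and Hmgcs1 have both segment effects above 0 and filled.

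The levels of Nnt over the 12 libraries were most like those of genes on other chromosomes. Among 11416 genes averaging 2 or more in log2 CPM, the highest Pearson correlations with Nnt were those of Tbc1d1 (r = 0.997), Nr5a2 (0.997), Fnbp1 (0.995), Zfp277 (0.994) and Tulp3 (0.994), on chromosomes 5, 1, 2, 12 and 6. The reads of Zfp277 and Tulp3 were partly divided with other genes. Such values of r were common, since 1109 genes reached an r of 0.9, and the 12 points fall into 4 groups of 3 cultures. By Spearman's rho, 1 of these 5 genes, Tulp3, was still among the first 5. Of the other redox genes followed here, Sod2 had an r of 0.964 (rank 268) and Gsr 0.963 (rank 287), Idh2 0.59, Txn2 0.43, Txnrd2 0.31, Prdx3 -0.45 and Gpx1 -0.49.

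A wider list of 48 redox genes, all tested, set these results among the rest of the pathway. In D2 against B6, 39 of the 48 were called, 19 higher and 20 lower (60.0% of all genes called), with a median log2 fold change of -0.01 (0.01 over all genes). The lowest were Mthfd1, a cytosolic enzyme of folate metabolism that makes NADPH (-1.11 ± 0.031 SE, adjusted p = 8.06e-15 by edgeR), and Gpx4, the peroxidase of lipid peroxides (-0.74 ± 0.047 SE, adjusted p = 4.08e-10 by edgeR). The highest were Glrx, the cytosolic glutaredoxin (1.69), and Sod3, the secreted superoxide dismutase (1.11). Called as lower on the D2 background in both comparisons, as Nnt, Sod2 and Gsr were, were 15 of the 48, among them Sod1, Idh1, Txn1, Prdx1, Prdx2, Cat, Mthfd1 and Gpx4, and 5 were higher (Glrx, Glud1, Prdx4, Prdx6 and Slc25a40). Over all genes, 29.1% followed the background in either direction, against these 20 of 48.

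The cytosolic counterparts of the mitochondrial enzymes were read beside them, a choice made after their values were seen. Sod1, the cytosolic superoxide dismutase, was at 343 ± 10.7 CPM in B6 and 207 ± 6.43 CPM in D2, with 454 ± 8.44 CPM for B6-13D2 and 219 ± 3.19 CPM for D2-13B6 (SD, n = 3), low on the D2 background like Sod2. Idh1, the cytosolic NADP-linked isocitrate dehydrogenase, was at 91.0 ± 3.21, 111 ± 3.64, 135 ± 4.25 and 75.0 ± 3.30 CPM in the same groups (SD, n = 3). In D2-13B6 it was thus the lowest, where Idh2 was above both parental groups. Txnrd1, the cytosolic thioredoxin reductase, was at 566 ± 16.1, 636 ± 27.7, 404 ± 7.30 and 474 ± 0.440 CPM (SD, n = 3), lower in both congenic groups.

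Against their background strains, 35 of the 48 changed in B6-13D2 (14 higher, 21 lower) and 36 in D2-13B6 (10 higher, 26 lower), where 58.3% and 57.3% of all genes did. The median log2 fold changes of the list were -0.03 and -0.12, against -0.04 and 0.00 over all genes. In B6-13D2 the lowest were Sod3 (-1.62) and Gpx8 (-1.55), a peroxidase of the endoplasmic reticulum, and the highest were Mthfd2 (0.79), a mitochondrial folate enzyme, and Txnip (0.59), an inhibitor of thioredoxin whose reads were partly divided with other genes. In D2-13B6 the lowest were Sod3 (-1.38) and Slc7a11 (-0.97), the cystine importer, also with divided reads, and the highest were Sesn1 (0.66) and Nadk2 (0.45), the mitochondrial NAD kinase. The same direction in both congenic lines was found for 23 of the 48, 6 higher and 17 lower, where 32.2% of all genes had it. The 17 were Aldh1l2, Gclc, Gclm, Gpx8, Hmox1, Me1, Mthfd2l, Nadk, Nfe2l2, Nqo1, Pgd, Prdx5, Sesn2, Slc7a11, Sod3, Srxn1 and Txnrd1, and the 6 were Idh3g, Mthfd1, Nadk2, Sesn1, Slc25a39 and Sod1. Of the 4 genes listed for NRF2 regulation and targets, Nfe2l2, Nqo1 and Hmox1 were thus lower in both, and Keap1 was not called in B6-13D2. The order of means of Gpx1 and of the fibroblast sum (D2, B6, D2-13B6 and B6-13D2) was met by 11 of the 48, or 22.9%, against 14.8% of all genes tested, and the reverse order of Idh2 by 2 of the 48, against 5.45% of all genes. All 11 were among the 17 that were lower in both congenic lines (64.7% of them), a direction that this order itself requires of the means, and they included Nqo1, Hmox1, Srxn1, Txnrd1, Slc7a11 and Gclc. Among the fibroblast genes themselves, Col1a1, Col1a2 and Thy1 had this order of means, and Col3a1, Dcn, Lum and Postn did not. The tally was chosen after the values were seen. The part of the fibroblast signal in these values was not tested.

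**Figure D5:**
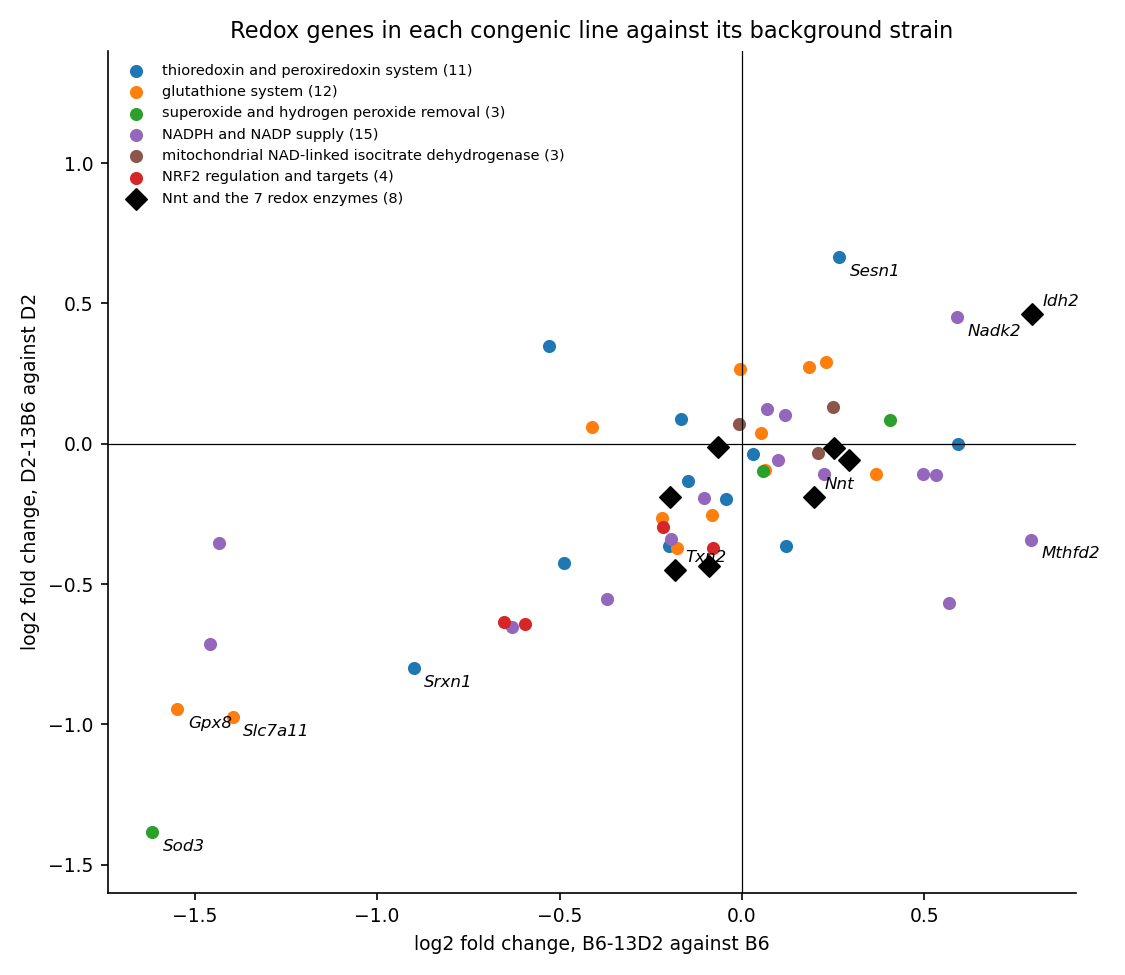
Log2 fold change (edgeR) of 48 redox genes, coloured by list, and of the 8 genes described here (black diamonds), in B6-13D2 against B6 (horizontal axis) and in D2-13B6 against D2 (vertical axis), comparisons that share no libraries. Idh2 lies at the upper right (0.79 and 0.46), Txn2 at the lower left (-0.18 and -0.45), and Nnt below the horizontal line on the right (0.20 and -0.19).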

How the data were processed

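RNA was sequenced in 12 stem cell libraries, 3 per genotype. The authors deposited a single table of EMASE expected counts per gene, as the deposited table is named, in which 88.1% of values were whole (within 1e-06). Build mm10, Bowtie 1.0.0 and edgeR 3.34.1 are named in the submitters' processing notes, without their roles. The annotation release and the strand setting are not given in the sources used here. Gene IDs were matched to GENCODE M21, which held 42462 of 43346.

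Expected counts were rounded and tested with edgeR 4.0.16 in R 4.3.3 (quasi-likelihood, TMM scaling, filterByExpr with a minimum count of 10, means of 4 groups, Benjamini-Hochberg over 17148 genes, threshold 0.05). Levels are CPM on TMM-scaled sizes. The intervals of about 95% come from the SE. The common dispersion was 0.00183. Library totals were 22184196 to 36411799. Libraries of a group differed by more than counting noise (chi-square per degree of freedom from 1.95 to 8.60), so errors are those between libraries. On simulated data for D2 against B6, with 16685 genes tested, edgeR recovered 90.8% of 98 genes changed 2-fold (log2 of 1) and 73.5% of 98 genes changed by 0.5.

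All 8 genes are named whatever their values. Neighbours within 1 Mb, the 5 genes most correlated with Nnt, and for each of 3 comparisons the 2 highest and 2 lowest called genes of the 48 redox genes were named by rule. The members and lists were chosen with earlier results of these data known. Replicate numbers did not pair the libraries. Alternatives were DESeq2 1.42.0, RLE scaling, other filters, fewer libraries and a replicate block.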

Additional observations from a re-analysis of the deposited data

Results flagged for a closer look

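For 6 of the 8 genes the effect of the segment differed between the B6 and the D2 background, by edgeR's test of the difference itself with Benjamini-Hochberg adjustment. Segment effects are those of the D2 segment against the B6 segment, and the difference is the effect on the B6 background minus that on the D2 background, on the log2 scale. It was 1.25 for Idh2, 0.24 for Gsr and 0.23 for Sod2 (edgeR adjusted p = 1.25e-13, 0.00121 and 9.37e-04). It was -0.64 for Txn2, -0.39 for Gpx1 and -0.53 for Txnrd2 (edgeR adjusted p = 3.62e-08, 3.07e-06 and 0.0187). The call for Txnrd2 was lost with DESeq2 (adjusted p = 0.0591) and without replicate 2 of B6, D2 or B6-13D2 (edgeR adjusted p from 0.0559 to 0.0651). This difference is also that between both congenic and both parental groups, which cannot be told apart from anything the congenic libraries share.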

How the results depend on the processing

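Of 1000 values of the 8 genes under the alternatives, 956 kept their direction and their side of the threshold, 13 lost and 7 gained a call, and 24 changed sign. For Nnt 122 of 125 were kept, and the 3 that changed sign were all of its difference in segment effect between backgrounds, which ran from -0.0322 to 0.0475 when each library was left out in turn. The number of genes called stayed within 1.5 times in 125 of 125 alternatives. Other sign changes were of values that had not passed. For Txn2 in D2 against B6 the value was 0.0345 with DESeq2 and with RLE scaling, and 0.0319 when genes averaging under 1 CPM were removed. In D2-13B6 against D2 without a filter it was 0.00846 for Prdx3 and 0.00575 for Gsr. With each library left out, D2 against B6 ran from -0.0281 to 0.173 for Txnrd2 and from -0.0116 to 0.0305 for Prdx3, B6-13D2 against B6 from -0.204 to 0.0165 for Txnrd2, D2-13B6 against D2 from -0.0540 to 0.0104 for Prdx3 and from -0.0434 to 0.0250 for Gsr, and D2-13B6 against B6 from -0.0405 to 0.0238 for Prdx3. Calls that were lost concerned Gpx1 in D2 against B6 (from 0.09 to 0.14), Gpx1 between the congenic lines (from -0.14 to -0.10; adjusted p = 0.0518 by edgeR without B6-13D2 replicate 3), and Txnrd2 in D2-13B6 against B6 (from -0.47 to -0.27; -0.31 with DESeq2, -0.31 with RLE scaling and -0.30 with the compared libraries only) and in the segment difference (from -0.64 to -0.42; -0.46 with DESeq2). Sod2 in D2-13B6 against D2 gained a call when genes averaging under 1 CPM were removed (-0.10, edgeR adjusted p = 0.022). Gpx1 in D2-13B6 against B6 gained a call without B6 replicate 1 or D2 replicate 3 (from -0.11 to -0.06 over the libraries left out), and Txnrd2 between the congenic lines (from 0.16 to 0.38) gained one without B6-13D2 replicate 2 or D2-13B6 replicate 2, when genes averaging under 1 CPM were removed (0.30, edgeR adjusted p = 0.0489) and with the compared libraries only (0.31, edgeR adjusted p = 0.0325). The cause was not tested. Libraries with the same number did not deviate together (mean r = -0.0075 over 18 pairs, 0 pairs over 0.1, and 0 libraries closest to their own number in every other group), and a replicate block changed 0 of 56 calls. With it, Nnt in D2 against B6 was -0.85. Txnrd2 had the fewest reads of the 8 genes, 112 to 232 per library.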
